A study of Mus musculus with 24 samples.

Results

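Fpr1, Fpr2 and Siglece were examined in mouse bone-marrow-derived macrophages (BMDM) as 3 of the 47372 genes in the deposited tables. They were selected on their normalized counts, because KLA and AcLDL moved them in opposite directions in LXR-positive cells. Their levels in the vehicle, KLA and AcLDL libraries of LXR-positive cells are therefore given as a description, without a test. All 3 genes passed the filter on low values in every fit.

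Marrow cells came from 6 mice of strain C57BL/6J, 8 to 12 weeks old. The labels called 3 of them DKO (LXR negative), a double knockout of the liver X receptors LXRalpha and LXRbeta, and the other 3 LXR positive. Cells grown in medium conditioned by L929 cells were given KLA (kdo2-lipidA, the part of bacterial lipopolysaccharide that activates the receptor TLR4) at 100 ng/ml, AcLDL (acetylated LDL, a modified lipoprotein used to fill macrophages with cholesterol through scavenger receptors) at 50 µg/ml, GW3965 (a synthetic LXR agonist) at 1 µM, or vehicle. KLA, GW3965 and vehicle acted for 17 hours from day 5. For AcLDL the sources used here give no duration. The 8 groups held 3 libraries each, 1 per mouse, and same-numbered libraries of a genotype were taken to come from the same mouse. The labels name no Cre driver or deleted exons for the knockout.

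Formyl peptide receptors are chemoattractant receptors of phagocytes that couple to inhibitory G proteins. Fpr1 encodes the receptor for N-formyl peptides, which bacteria and damaged mitochondria release. Fpr2 encodes a relative with broader binding, whose known ligands include annexin A1, serum amyloid A and the cathelicidin peptide. Siglece encodes Siglec-E, a lectin of mouse myeloid cells that binds sialic acid on glycans and recruits the phosphatases SHP-1 and SHP-2 through inhibitory motifs in its tail.

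Fpr1 (ENSMUSG00000045551) lies on the minus strand of chromosome 17, at 17876471 to 17883940 in GRCm38. Fpr2 (ENSMUSG00000052270) follows it on the plus strand at 17887824 to 17893952, and the RefSeq starts of these divergent neighbours are 3885 bases apart. Siglece (ENSMUSG00000030474) lies on the minus strand of chromosome 7, at 43651070 to 43660161. All 3 are annotated as protein-coding. The 250 bases before each RefSeq start (GRCm38.p6, written on the gene's strand) are shown because the 3 genes moved together in the libraries and because Fpr1 and Fpr2 are neighbours. The windows are chr17:17883940-17884189 on the minus strand for Fpr1, chr17:17887574-17887823 on the plus strand for Fpr2 and chr7:43660162-43660411 on the minus strand for Siglece. Capitals mark matches to the motifs searched.
Fpr1: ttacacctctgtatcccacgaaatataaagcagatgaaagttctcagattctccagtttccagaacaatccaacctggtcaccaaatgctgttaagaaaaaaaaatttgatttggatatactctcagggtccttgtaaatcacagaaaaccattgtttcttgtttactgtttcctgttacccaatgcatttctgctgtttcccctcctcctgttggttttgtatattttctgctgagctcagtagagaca
Fpr2: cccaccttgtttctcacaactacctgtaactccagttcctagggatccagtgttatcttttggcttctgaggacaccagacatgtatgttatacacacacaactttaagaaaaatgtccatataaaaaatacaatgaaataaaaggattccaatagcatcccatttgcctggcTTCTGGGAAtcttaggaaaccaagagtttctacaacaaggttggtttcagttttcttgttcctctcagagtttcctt
Siglece: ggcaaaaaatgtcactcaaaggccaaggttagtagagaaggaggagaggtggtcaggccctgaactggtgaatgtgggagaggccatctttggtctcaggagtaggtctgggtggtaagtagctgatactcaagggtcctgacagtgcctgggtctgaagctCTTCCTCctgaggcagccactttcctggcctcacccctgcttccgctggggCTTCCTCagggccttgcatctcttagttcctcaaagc

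Both strands of each window were searched for AP-1 (TGANTCA), NF-kB (GGGANNTTC), an interferon-regulated element (GAAANNGAA), STAT (TTCNNNGAA), PU.1 (GAGGAAG), C/EBP (TTGCNNAA) and the nuclear receptor half-site (AGGTCA). Fpr2 held 1 STAT match, 77 to 69 bases before its start, and 7.02% of 32851 RefSeq windows of that length held one. Siglece held PU.1 matches at 88 to 82 and at 37 to 31 bases before its start, a motif found in 10.6% of the windows. Fpr1 had no match, which says only that these letters are not in its window. The shares of all windows for the motifs without a match were 6.75% (AP-1), 3.23% (NF-kB), 7.13% (interferon-regulated element), 9.56% (C/EBP) and 14.02% (half-site). No searched motif was found in all 3 windows.

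Because reads were 50 bases long, the transcripts were also searched for stretches of that length shared with other genes. The spliced transcripts of Fpr1 and Fpr2 in GENCODE M21 share 1 such stretch, which is coding in both, at chr17:17877280-17877329 on the minus strand in Fpr1 and chr17:17893116-17893165 on the plus strand in Fpr2. It is shown because reads from it cannot be told apart between the receptors.
Fpr1 and Fpr2: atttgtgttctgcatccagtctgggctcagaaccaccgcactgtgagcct
Fpr1 had no other shared stretch among 1275, and Siglece had 0 among 1848. Of the 1295 stretches of Fpr2, 408 (31.5%) occurred in another gene. Of these, 368 were found in Gm5966, an annotated pseudogene that is not analysed here, and 82 in Fpr3. Fpr2 and Fpr3 also share 48 exon bases on the same strand. Fpr2 values are therefore less certain than those of Fpr1 and Siglece, since the sources used here do not say how the counting shared such reads.

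Values are the authors' normalized counts, whole numbers divided by a size factor for each library. These whole numbers are called reads here, but they may be rounded estimates of the counting program. The libraries held 6448579 to 27189081 reads, with 9705391 to 27189081 in DKO and 6448579 to 17348717 in LXR-positive libraries. The 3 genes themselves drew 9 reads (Fpr2, LXR-positive AcLDL) to 4321 reads (Siglece, DKO KLA) per library, and counting error is largest in the AcLDL groups. The targeted genes do not check the labels, since the totals cover the whole gene: Nr1h2, encoding LXRbeta, averaged 329 ± 64.0 in DKO and 582 ± 66.0 in LXR-positive vehicle libraries (SD, n = 3 each). Nr1h3, encoding LXRalpha, averaged 181 ± 5.43 in DKO and 135 ± 35.8 in LXR-positive vehicle libraries. GW3965 did raise the LXR target Abca1 in LXR-positive cells (log2 difference 2.15 ± 0.10 SE, limma adjusted p = 4.77e-07), against 0.10 ± 0.10 in DKO cells (adjusted p = 0.953). All 7 macrophage markers were detected in every group.

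All 3 genes had the same 3 tiers of expression. KLA libraries stood far above the rest, vehicle and GW3965 libraries lay in the middle, and AcLDL libraries lay at the bottom, in DKO and in LXR-positive cells. The middle and bottom tiers touched for Fpr1, where the lowest GW3965 library (45.5, DKO) lay under the highest AcLDL library (47.5, LXR-positive).

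**Figure D1:**
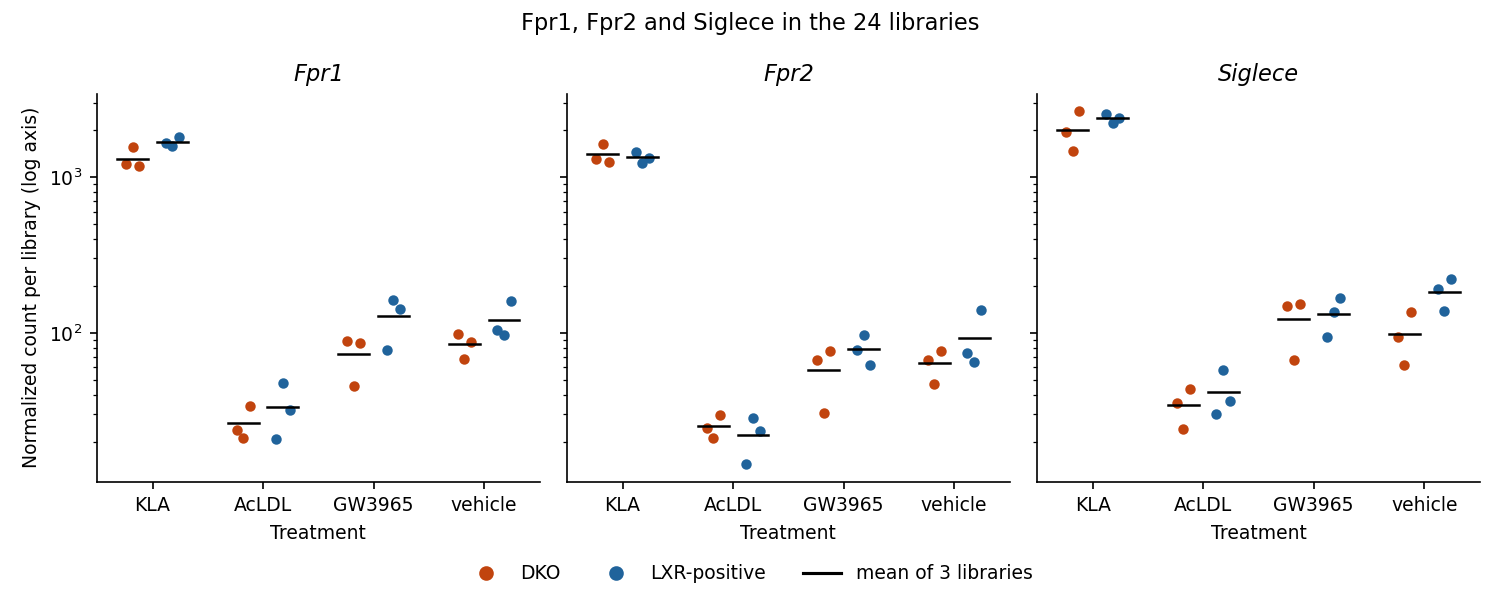
Normalized count of Fpr1, Fpr2 and Siglece in each of the 24 libraries (log axis), by treatment, with DKO left of LXR-positive and a bar at the mean of 3 libraries. Every KLA library lies at or above 1171 and every AcLDL library at or below 57.9, with vehicle and GW3965 libraries between 30.4 and 222.

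Fpr1 was measured at 1203, 1557 and 1171 normalized counts under KLA in DKO mice 1, 2 and 3, against 98.7, 68.2 and 87.5 under vehicle. With AcLDL the same mice gave 23.7, 21.0 and 34.1, and with GW3965 88.3, 45.5 and 86.1. No KLA or AcLDL library of DKO cells overlapped the vehicle range, while the GW3965 range did. In LXR-positive mice Fpr1 stood at 1643, 1574 and 1808 under KLA, 20.7, 47.5 and 32.1 under AcLDL, 77.3, 162 and 143 under GW3965, and 105, 97.3 and 160.1 under vehicle. The highest group was LXR-positive KLA, at 1675 ± 120.2, which did not overlap DKO KLA at 1310.5 ± 214 (SD, n = 3 each). Below these, each group overlapped the next in the order LXR-positive GW3965 (127 ± 44.5), LXR-positive vehicle (121 ± 34.3), DKO vehicle (84.8 ± 15.4), DKO GW3965 (73.3 ± 24.1), LXR-positive AcLDL (33.5 ± 13.4) and DKO AcLDL (26.3 ± 6.92).

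Fpr2 was measured at 1311, 1635 and 1251 normalized counts under KLA in DKO mice 1, 2 and 3, against 67.2, 46.9 and 76.6 under vehicle. With AcLDL the same mice gave 24.5, 21.0 and 29.6, and with GW3965 67.0, 30.4 and 76.0. As for Fpr1, the KLA and AcLDL libraries of DKO cells lay outside the vehicle range on opposite sides. In LXR-positive mice Fpr2 stood at 1451, 1226 and 1331 under KLA, 14.4, 28.2 and 23.4 under AcLDL, 77.3, 96.2 and 61.9 under GW3965, and 73.8, 65.4 and 141 under vehicle. Here the DKO KLA group was the higher one, at 1399 ± 206 against 1336 ± 112 in LXR-positive KLA, and these groups overlapped. The middle tier ran from LXR-positive vehicle (93.2 ± 41.2) through LXR-positive GW3965 (78.5 ± 17.2) and DKO vehicle (63.6 ± 15.2) to DKO GW3965 (57.8 ± 24.2), each overlapping the next. DKO AcLDL (25.1 ± 4.32) lay below all of them, just under the lowest DKO GW3965 library, and overlapped LXR-positive AcLDL (21.97 ± 7.03).

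Siglece was measured at 1945, 1457 and 2645 normalized counts under KLA in DKO mice 1, 2 and 3, against 93.8, 62.3 and 137 under vehicle. With AcLDL the same mice gave 35.2, 24.2 and 43.8, and with GW3965 148, 67.1 and 152. KLA and AcLDL libraries of DKO cells again lay outside the vehicle range, and the spread among DKO KLA libraries was wider than for the receptors (SD 29.6% of the mean, against 16.3% for Fpr1 and 14.8% for Fpr2). In LXR-positive mice Siglece stood at 2528, 2231 and 2379 under KLA, 30.3, 57.9 and 36.5 under AcLDL, 93.5, 135 and 168 under GW3965, and 190.3, 139 and 222 under vehicle. The order was LXR-positive KLA (2379 ± 149), DKO KLA (2016 ± 597), LXR-positive vehicle (184 ± 42.3), LXR-positive GW3965 (132 ± 37.3), DKO GW3965 (122 ± 47.9), DKO vehicle (97.6 ± 37.3), LXR-positive AcLDL (41.6 ± 14.5) and DKO AcLDL (34.4 ± 9.85). Neighbours overlapped except at 2 steps, between DKO KLA and LXR-positive vehicle and between DKO vehicle and LXR-positive AcLDL.

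KLA raised all 3 genes in DKO macrophages, whose values took no part in choosing the genes. The spread behind each standard error and p-value was also estimated from the LXR-positive KLA and vehicle libraries, which did take part. A fit of only the 6 DKO libraries compared kept the call of all 3 genes. The fitted increase over vehicle was 15.3-fold for Fpr1, 21.96-fold for Fpr2 and 20.9-fold for Siglece, and each gene was higher in 3 of 3 mice. Within a mouse the ratio lay between 12.2 and 22.8 for Fpr1, 16.3 and 34.9 for Fpr2, and 19.4 and 23.4 for Siglece. On the log2(normalized count + 1) scale Fpr1 rose by 3.94 ± 0.20 SE (95% interval 3.51 to 4.37, limma adjusted p = 1.88e-07). Fpr2 rose by 4.46 ± 0.26 (3.89 to 5.02, limma adjusted p = 3.91e-07) and Siglece by 4.38 ± 0.28 (3.78 to 4.99, limma adjusted p = 7.1e-07). All 3 of 3 were therefore called higher, where 14% of the 15957 genes tested were. The same difference in LXR-positive cells, which the choice of genes used, was 3.82 ± 0.20 for Fpr1, 3.91 ± 0.26 for Fpr2 and 3.71 ± 0.28 for Siglece, in a comparison where 16.2% of genes were called higher, and nothing is read from that.

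**Figure D2:**
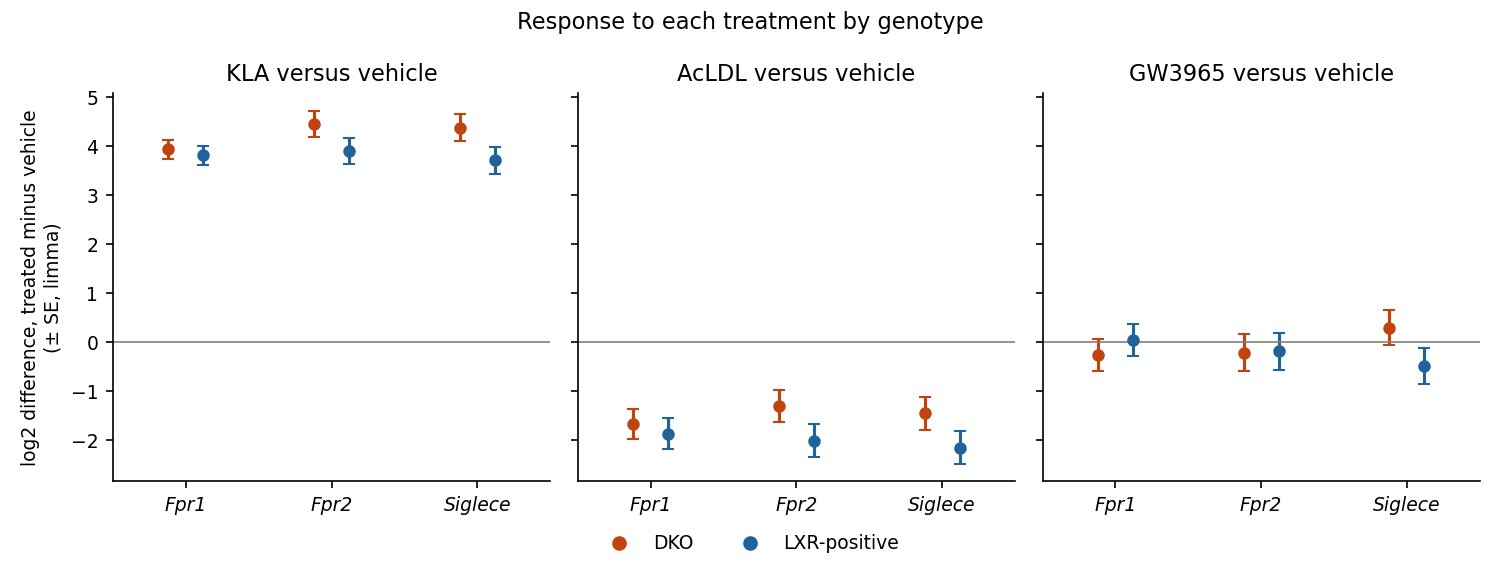
log2 difference of each treatment from vehicle, on the log2(normalized count + 1) scale, with its limma standard error, for DKO (left of each pair) and LXR-positive cells. KLA differences lie between 3.71 and 4.46, AcLDL differences between -2.14 and -1.29, and GW3965 differences between -0.48 and 0.30.

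In these bulk libraries more cells of a type and more RNA per cell cannot be told apart. Some markers of cell types and the mitochondrial share of reads moved with KLA in DKO cells. Over all 15957 genes tested there, 25.2% were called in either direction. Of the 11 neutrophil markers tested, 1 rose (Csf3r) and 5 fell, the summed level of all 12 listed was 5130 to 9414 normalized counts under KLA and 7269 to 10494 under vehicle, and none was at 0. Of 4 tested dendritic cell markers, Ccr7 and Bst2 rose and 0 fell. Zbtb46 (log2 difference -0.23 ± 0.30, limma adjusted p = 0.625) and Xcr1 (0.94 ± 0.40, limma adjusted p = 0.11) were not called. The sum over 6 markers was 2776 to 3418 under KLA against 517 to 782 under vehicle. Lymphocyte markers summed to 24.2 to 40.7 under KLA and 41.6 to 47.8 under vehicle. Stromal markers summed to 238 to 1901 under KLA and 204 to 3404 under vehicle, with 0 of 5 called. Of the 7 macrophage markers 3 rose and 2 fell, with sums of 109959 to 124779 under KLA against 66692 to 81965 under vehicle. Mitochondrial genes took 8.76 to 12.6% of reads under KLA and 14.02 to 16.6% under vehicle, without overlap. The part of these changes in the rise of the 3 genes was not tested.

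All 3 genes were lower with AcLDL than with vehicle in every DKO mouse, but the differences did not pass the test across all genes. The DKO AcLDL mean was 0.310 times the vehicle mean for Fpr1, 0.394 times for Fpr2 and 0.352 times for Siglece, with each gene lower in 3 of 3 mice. Fpr1 differed by -1.67 ± 0.31 on the log2 scale (95% interval -2.34 to -0.99, limma adjusted p = 0.116, unadjusted p = 0.000181). Fpr2 differed by -1.29 ± 0.33 (-2.02 to -0.57, limma adjusted p = 0.407, unadjusted p = 0.00217) and Siglece by -1.45 ± 0.33 (-2.17 to -0.72, limma adjusted p = 0.308, unadjusted p = 0.00098). Thus 0 of 3 were called, where 0.125% of 16026 genes (20 genes, 18 of them lower) were, or 38 genes with the mouse as a block. By unadjusted p the 3 genes ranked 25 (Fpr1), 51 (Siglece) and 85 (Fpr2) among those genes, and 1004 genes had an unadjusted p under 0.05. DESeq2 on the recovered reads did call Fpr1 (-1.68, adjusted p = 0.000331) and Siglece (-1.50, adjusted p = 0.00958) and not Fpr2 (adjusted p = 0.0685).

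Fdps, an enzyme of the mevalonate pathway, fell by 2.24 ± 0.12 on the log2 scale with AcLDL in DKO cells (limma adjusted p = 6.07e-06). In LXR-positive cells, whose AcLDL values chose the genes, the log2 difference was -1.86 ± 0.31 for Fpr1, -2.002 ± 0.33 for Fpr2 and -2.14 ± 0.33 for Siglece, and 0.225% of genes were called in that comparison. In DKO cells 0 of 11 tested neutrophil markers were called under AcLDL, where 0.125% of all genes tested were. The 12 listed summed to 7337 to 9993 normalized counts under AcLDL against 7269 to 10494 under vehicle. Lymphocyte markers summed to 45.7 to 73.5 under AcLDL against 41.6 to 47.8 under vehicle, and macrophage markers to 57055 to 73240 against 66692 to 81965. Dendritic cell markers summed to 492 to 644 against 517 to 782, and stromal markers to 213 to 3929 against 204 to 3404. The part of these values in the AcLDL differences was not tested.

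**Figure D3:**
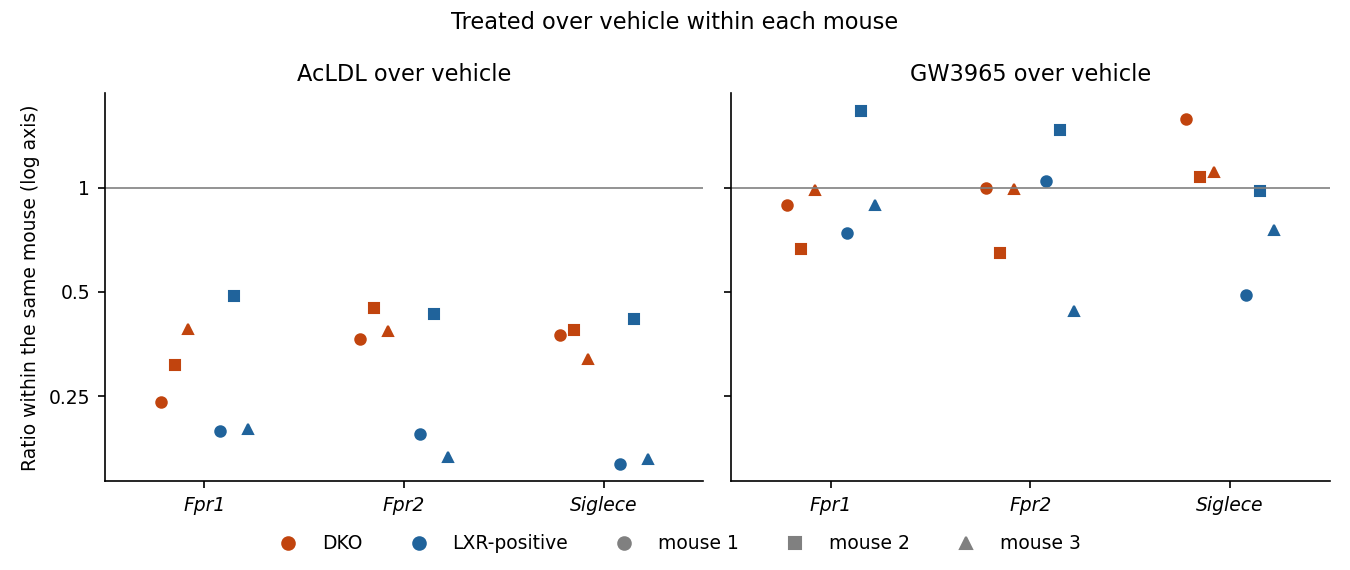
Ratio of treated to vehicle normalized count within each mouse (log axis), for AcLDL and for GW3965, with DKO left of LXR-positive and a marker shape for each mouse number, which pairs no mice across genotypes. The AcLDL ratios lie between 0.159 and 0.488, while GW3965 ratios lie on both sides of 1.

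The DKO libraries of KLA and of AcLDL were also set against each other, which uses no vehicle library. Fpr1 was higher under KLA by 5.60 ± 0.26 on the log2 scale (limma adjusted p = 2.44e-08), Fpr2 by 5.75 ± 0.22 (limma adjusted p = 6.59e-09) and Siglece by 5.83 ± 0.27 (limma adjusted p = 2.44e-08). These are 48.6-fold, 53.8-fold and 56.9-fold differences in the same gene order. All 3 were called higher, where 16% of 16184 genes were.

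GW3965 gave no called change in the 3 genes in DKO cells. The log2 difference from vehicle was -0.25 ± 0.33 for Fpr1 (95% interval -0.97 to 0.46, limma adjusted p = 0.967), -0.21 ± 0.37 for Fpr2 (-1.02 to 0.60, adjusted p = 0.984) and 0.30 ± 0.36 for Siglece (-0.49 to 1.09, adjusted p = 0.958). Without the GW3965 library of DKO mouse 2 the fitted difference was 0.056 for Fpr1 and 0.19 for Fpr2. That fit kept the vehicle library of mouse 2, the lowest of the DKO vehicle libraries for both genes. Within DKO mice 1, 2 and 3 the ratio of GW3965 to vehicle was 0.895, 0.667 and 0.985 for Fpr1. For Fpr2 it was 0.997, 0.647 and 0.992. For Siglece the fitted difference was 0.020 without the vehicle library of DKO mouse 2 and 0.69 without its GW3965 library, with values of 0.10 to 0.58 without any 1 of the others. Called genes made up 0.00621% of 16116 tested, 1 gene by limma, with 940 genes at an unadjusted p under 0.05, 24 called by DESeq2 and 0 by edgeR. In LXR-positive cells the log2 difference was 0.045 ± 0.33 for Fpr1, -0.18 ± 0.37 for Fpr2 and -0.48 ± 0.36 for Siglece. The KLA, AcLDL and GW3965 comparisons of DKO cells share the 3 DKO vehicle libraries.

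Under GW3965, a treatment that took no part in choosing the genes in either genotype, DKO cells had no called difference from LXR-positive cells. Fpr1 averaged 73.3 ± 24.1 in DKO and 127 ± 44.5 in LXR-positive cells, a log2 difference of -0.78 ± 0.33 (95% interval -1.50 to -0.065, limma adjusted p = 0.149, unadjusted p = 0.0349). Fpr2 differed by -0.51 ± 0.37 (-1.33 to 0.30, adjusted p = 0.402) and Siglece by -0.16 ± 0.36 (-0.95 to 0.63, adjusted p = 0.811). In this comparison 0 of 3 were called, where 9.64% of genes were. Without the GW3965 library of DKO mouse 2 the difference was -0.47 for Fpr1 and -0.11 for Fpr2, and over the 6 libraries left out in turn it ran from -1.105 to -0.47 for Fpr1 and from -0.76 to -0.11 for Fpr2. The Siglece difference was 0.22 without the GW3965 library of DKO mouse 2 and 0.028 without that of LXR-positive mouse 3, so its direction rested on single libraries. Of 11 tested neutrophil markers 6 were higher in DKO cells and 0 lower, with sums of 9302 to 12984 in DKO against 4947 to 7630 in LXR-positive cells and no marker at 0, and their part in these values was not tested. Stromal markers summed to 1295 to 6812 in DKO and 199 to 634 in LXR-positive cells, with 0 of 5 called. Lymphocyte markers summed to 56.7 to 69.7 in DKO and 14.2 to 29.5 in LXR-positive cells, Cd3e was at 0 in all 3 LXR-positive libraries, and 1 of the 2 tested markers was called higher in DKO cells (Cd3g by 2.06 ± 0.47, limma adjusted p = 0.0205). Macrophage markers summed to 66448 to 88516 in DKO and 89093 to 90988 in LXR-positive cells. Mitochondrial genes took 12.6 to 14.7% of reads in DKO and 14.9 to 19.4% in LXR-positive libraries. The part of these values in the differences was not tested either.

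The remaining genotype comparisons are a description, since they use libraries that chose the genes. Under vehicle DKO cells differed from LXR-positive cells by -0.48 ± 0.33 for Fpr1, -0.49 ± 0.37 for Fpr2 and -0.95 ± 0.36 for Siglece on the log2 scale. Under KLA they differed by -0.36 ± 0.20 for Fpr1, 0.060 ± 0.26 for Fpr2 and -0.28 ± 0.28 for Siglece, and under AcLDL by -0.29 ± 0.31, 0.22 ± 0.33 and -0.25 ± 0.33 in that gene order. The response to KLA, DKO minus LXR-positive, was 0.12 ± 0.28 for Fpr1, 0.55 ± 0.37 for Fpr2 and 0.67 ± 0.39 for Siglece. The response to AcLDL differed by 0.20 ± 0.44 for Fpr1, 0.71 ± 0.47 for Fpr2 and 0.70 ± 0.47 for Siglece. The response to GW3965 differed by -0.30 ± 0.46 for Fpr1, -0.025 ± 0.53 for Fpr2 and 0.79 ± 0.51 for Siglece. In the authors' deposited table the same differences in response were 0.146, 0.602 and 0.667 for KLA and 0.157, 0.725 and 0.635 for AcLDL in that gene order. For GW3965 the authors' deposited table gives -0.311, 0.0868 and 0.782.

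DKO mouse 2 stood apart from the other DKO mice in these genes. It had the lowest level of all 3 genes among DKO libraries under vehicle, AcLDL and GW3965. Under KLA it had the highest level of Fpr1 and Fpr2 and the lowest level of Siglece. Its neutrophil marker sum was the highest of the DKO mice in each treatment, at 9414 under KLA, 9993 under AcLDL, 12984 under GW3965 and 10494 under vehicle. Its stromal marker sum was the highest of the DKO mice under AcLDL (3929, against 1669 and 213 in mice 1 and 3), GW3965 (6812, against 3935 and 1295) and vehicle (3404, against 2006 and 204), but not under KLA (1818, against 1901 and 238). The part of these markers in its values was not tested. Every KLA call of the 3 genes in DKO cells also held without its KLA library or its vehicle library.

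The 3 genes were chosen for a shared pattern in the LXR-positive vehicle, KLA and AcLDL libraries, so their likeness over sets that include these libraries is partly fixed by the choice. Over all 24 libraries Pearson's r of log2(normalized count + 1) was 0.990 between Fpr1 and Fpr2, 0.989 between Fpr1 and Siglece and 0.986 between Fpr2 and Siglece. The 6 KLA libraries form a cluster of their own, and without them r was 0.946, 0.948 and 0.928 in that order (18 libraries). Within the 6 KLA libraries r was 0.35, -0.042 and -0.68. These values describe libraries that share mice and treatments, and nothing more is read from them.

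Per kilobase of exon the receptors were set beside each other. Of the 50-base stretches of Fpr2, 31.5% occur in another gene, so its ratio to Fpr1 may be off by an unknown amount. Under KLA the level of Fpr2 over that of Fpr1 was 1.09 ± 0.020 in DKO and 0.817 ± 0.077 in LXR-positive cells, with ranges of 1.07 to 1.11 and 0.752 to 0.902 that did not overlap. Under AcLDL this ratio was 0.988 ± 0.089 in DKO and 0.686 ± 0.071 in LXR-positive cells, again without overlap (0.887 to 1.05 and 0.607 to 0.743). Under vehicle the ratios were 0.764 ± 0.11 in DKO and 0.768 ± 0.11 in LXR-positive cells, and overlapped. Siglece over Fpr1 was 1.15 ± 0.47 in DKO and 1.02 ± 0.080 in LXR-positive cells under KLA, and 0.818 ± 0.26 in DKO and 1.11 ± 0.17 in LXR-positive cells under vehicle. Under AcLDL it was 0.934 ± 0.12 in DKO and 0.911 ± 0.12 in LXR-positive cells, and under these 3 treatments the genotypes overlapped. Under GW3965 Siglece over Fpr1 was 1.17 ± 0.11 in DKO and 0.769 ± 0.15 in LXR-positive cells, and the ranges did not overlap (1.06 to 1.26 and 0.598 to 0.867). Fpr2 over Fpr1 under GW3965 was 0.786 ± 0.11 in DKO and 0.690 ± 0.30 in LXR-positive cells, and overlapped. None of these ratios was tested, and those under vehicle, KLA and AcLDL use LXR-positive libraries that chose the genes.

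**Figure D4:**
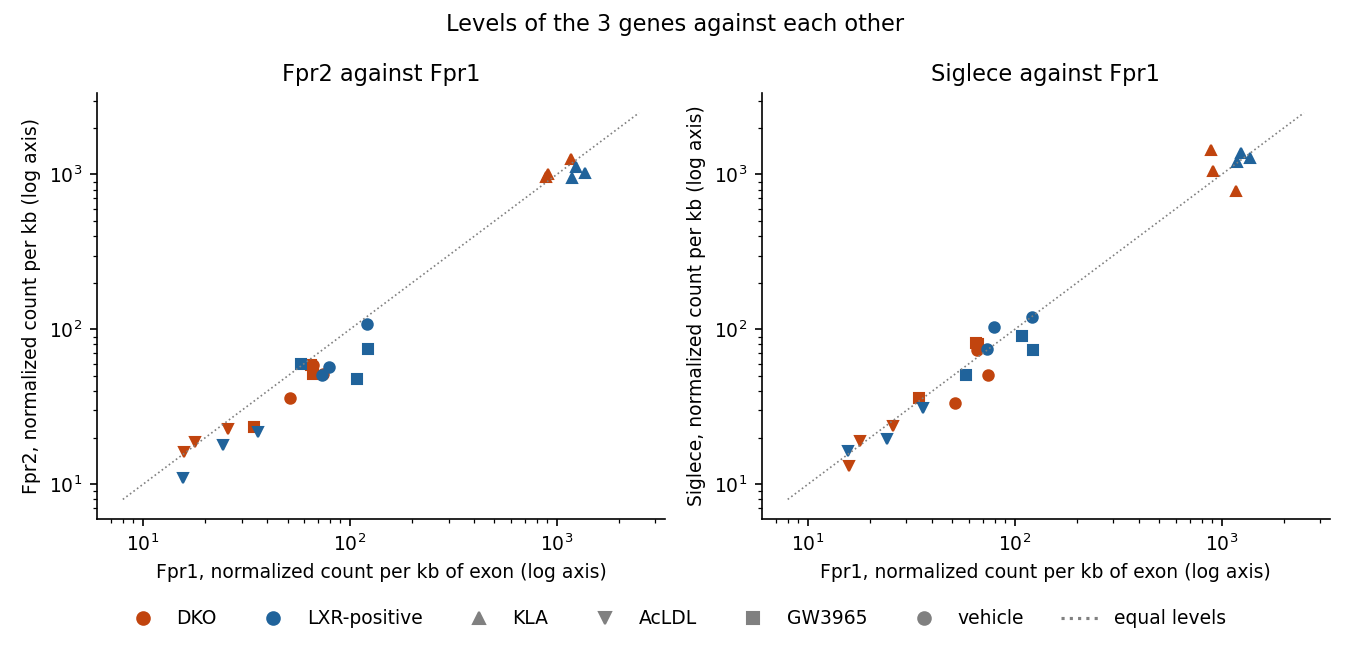
Normalized count per kilobase of exon of Fpr2 and of Siglece against Fpr1 in the 24 libraries, on log axes, coloured by genotype and shaped by treatment, with a dotted line at equal levels. DKO KLA libraries lie above the line for Fpr2, at 1.07 to 1.11 times Fpr1, and LXR-positive KLA libraries below it, at 0.752 to 0.902 times. The place of Fpr2 against the line is uncertain, since its reads may be shared with other genes.

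Among 10633 genes with a mean of at least 50 normalized counts, the 5 most like each of the 3 genes over the 24 libraries included the other 2 in each case. The libraries that chose the 3 genes are among the 24, and 6 of the 18 libraries without KLA are too, so this order is a description. For Fpr1 the others were Pilra (r = 0.980), Itgal (0.973) and Icam1 (0.971). The others for Fpr2 were Pilra (0.986), Itgal (0.981) and N4bp1 (0.981), and for Siglece they were Irak3 (0.988), Itgal (0.987) and Pilra (0.982). Pilra ranked above Siglece in likeness to Fpr2, and Irak3 and Itgal ranked above Fpr2 in likeness to Siglece. Pilra encodes an inhibitory receptor of myeloid cells, Itgal a chain of the integrin LFA-1, Icam1 its ligand, and Irak3 a negative regulator of Toll-like receptor signalling. Itgal averaged 5096 under KLA, 263 under AcLDL and 538 under vehicle in DKO cells, and Irak3 averaged 3632 under KLA, 560.0 under AcLDL and 934 under vehicle. Without the KLA libraries the other 2 members were among the 3 most alike for each gene, next to Cd55 for Fpr1 (r = 0.926), Slco3a1 for Fpr2 (0.919) and Slfn5 for Siglece (0.932).

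Genes of known formyl peptide receptor ligands moved in opposite directions under KLA in DKO cells. Saa3, a serum amyloid A gene, rose to 194631 to 337595 normalized counts under KLA, against 71.6 to 559 under vehicle (limma adjusted p = 2.71e-06). Saa1 rose to 303 to 696 under KLA, against 0 to 0.593 under vehicle (limma adjusted p = 1.06e-07). Anxa1, encoding annexin A1, fell to 999 ± 27.9 under KLA, against 5073 ± 1733 under vehicle (log2 difference -2.28 ± 0.28, limma adjusted p = 9.05e-05). Ctsg, encoding cathepsin G of neutrophil granules, fell by 2.49 ± 0.71 (limma adjusted p = 0.0225), and its call ended without either of DKO mouse 1's libraries, the vehicle library of mouse 2 or the KLA library of mouse 3 (log2 -2.58 to -2.07). Of 6 tested ligand genes 2 rose and 2 fell, with a median log2 difference of -0.14 against -0.0038 over all genes. Over all 15957 genes tested under KLA in DKO cells 25.2% were called in either direction, and over the 9 lists together 30 of 95 tested genes rose and 16 fell.

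Of the other formyl peptide receptors, none passed the filter. Fpr3 had 11 reads in all, spread over 7 libraries, Fpr-rs4 had 2 reads, and Fpr-rs3, Fpr-rs6 and Fpr-rs7 had 0 reads in the 24 libraries. Fpr1 and Fpr2 had 10309 and 9594 reads over the same libraries.

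Downstream of chemoattractant receptors, 5 of 18 tested genes of G protein signalling rose and 2 fell under KLA in DKO cells (median log2 difference 0.30). For comparison, 25.2% of all genes tested were called in either direction. Rac2, a small GTPase that activates the phagocyte oxidase, rose by 1.34 ± 0.12 (limma adjusted p = 1.23e-05). Gnb1, a G protein beta subunit, rose by 0.69 ± 0.11 and Gng2, a gamma subunit, fell by 1.00 ± 0.21 (limma adjusted p = 0.000673 and 0.00375 for these genes). Of the 5 subunits of the phagocyte NADPH oxidase, which makes superoxide, 4 rose and 0 fell (median 0.74). They included Cybb by 1.78 ± 0.15 and Ncf1 by 1.25 ± 0.14 (limma adjusted p = 5.74e-06 and 3.87e-05). Cyba rose by 0.74 ± 0.20 (limma adjusted p = 0.0168), a call that ended without the vehicle library of mouse 1 or the KLA library of mouse 2 or 3 (0.60 to 0.67).

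The other chemoattractant receptors did not share one direction. Of 12 tested, 3 rose and 6 fell under KLA in DKO cells, with a median log2 difference of -0.50. The share called over all genes tested was 25.2%. Gpr84, a receptor for medium-chain fatty acids, rose by 4.67 ± 0.31 (limma adjusted p = 9.51e-07). Cxcr4 fell by 2.74 ± 0.28 and Ccr2, the receptor of monocyte chemoattractants, fell by 2.55 ± 0.29 (limma adjusted p = 2.55e-05 and 5.29e-05).

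Among the other Siglecs, 1 of 6 tested rose and 1 fell under KLA in DKO cells (median log2 difference 0.049). The share called over all genes tested was 25.2%, in either direction. Siglec1, the sialoadhesin of macrophages, averaged 4150.5 ± 632 under KLA and 4105 ± 500.4 under vehicle (SD, n = 3 each), with a log2 difference of 0.012 ± 0.17 (limma adjusted p = 0.968). Cd33 stood at 1239 ± 484 under KLA and 557 ± 161 under vehicle (1.12 ± 0.37, limma adjusted p = 0.0453), and this call ended without any 1 of 5 of the 6 libraries, the exception being the vehicle library of mouse 2 (log2 0.82 to 1.31). It also ended with no filter on low values (adjusted p = 0.0707) and with quantile normalization (0.0684), both by limma. Cd22 fell to 128 ± 26.8 under KLA, against 381 ± 56.0 under vehicle (-1.57 ± 0.25, limma adjusted p = 0.000661). Siglecf, at 10.2 ± 4.75 under KLA and 38.3 ± 21.9 under vehicle, was not called. Siglech (22.5 ± 7.61 under KLA, 20.6 ± 3.26 under vehicle) and Mag (94.3 ± 18.6 under KLA, 76.1 ± 11.4 under vehicle) were not called either. Siglecg and Siglec15 stayed under the filter, with a highest library of 10.9 and 1.33.

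Kinases that phosphorylate the tails of such receptors rose in part. Of 10 tested genes (phosphatases, kinases and the adaptor gene Tyrobp) 4 rose and 0 fell (median 0.37), with Src by 3.15 ± 0.39 and Fgr by 1.65 ± 0.19 (limma adjusted p = 9.68e-05 and 6.6e-05). The called genes were all kinases. For these lists too, the share called over all genes tested was 25.2%. Of 16 genes that make, transfer or remove sialic acid, 5 rose and 3 fell (median -0.13). St6gal1 and St8sia4, which add sialic acid in alpha-2,6 and alpha-2,8 linkage, fell by 2.86 ± 0.31 and 1.77 ± 0.22 (limma adjusted p = 4.02e-05 and 0.000113). St3gal1, which adds it in alpha-2,3 linkage, rose by 1.27 ± 0.16 (limma adjusted p = 0.000112).

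Of 14 other inhibitory receptors 4 rose and 2 fell under KLA in DKO cells (median 0.29). Pilra rose by 3.16 ± 0.16 (limma adjusted p = 2.03e-07), Cd300a fell by 3.24 ± 0.22 (limma adjusted p = 1.1e-06) and Cd200r1, the receptor of CD200, fell by 1.09 ± 0.17 (limma adjusted p = 0.000607). In the TLR4 receptor complex, through which KLA acts, 2 of 8 genes rose and 0 fell (median 0.15). These were the co-receptor gene Cd14 by 1.06 ± 0.17 and the adaptor gene Myd88 by 0.81 ± 0.14 (limma adjusted p = 0.000878 and 0.00116). Of all genes tested 25.2% were called in either direction, and the count in the TLR4 list is near that share. As a check of KLA itself, Nos2 rose by 7.45 ± 0.53 and Il1b by 6.74 ± 0.34 (limma adjusted p = 1.58e-06 and 1.88e-07).

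**Figure D5:**
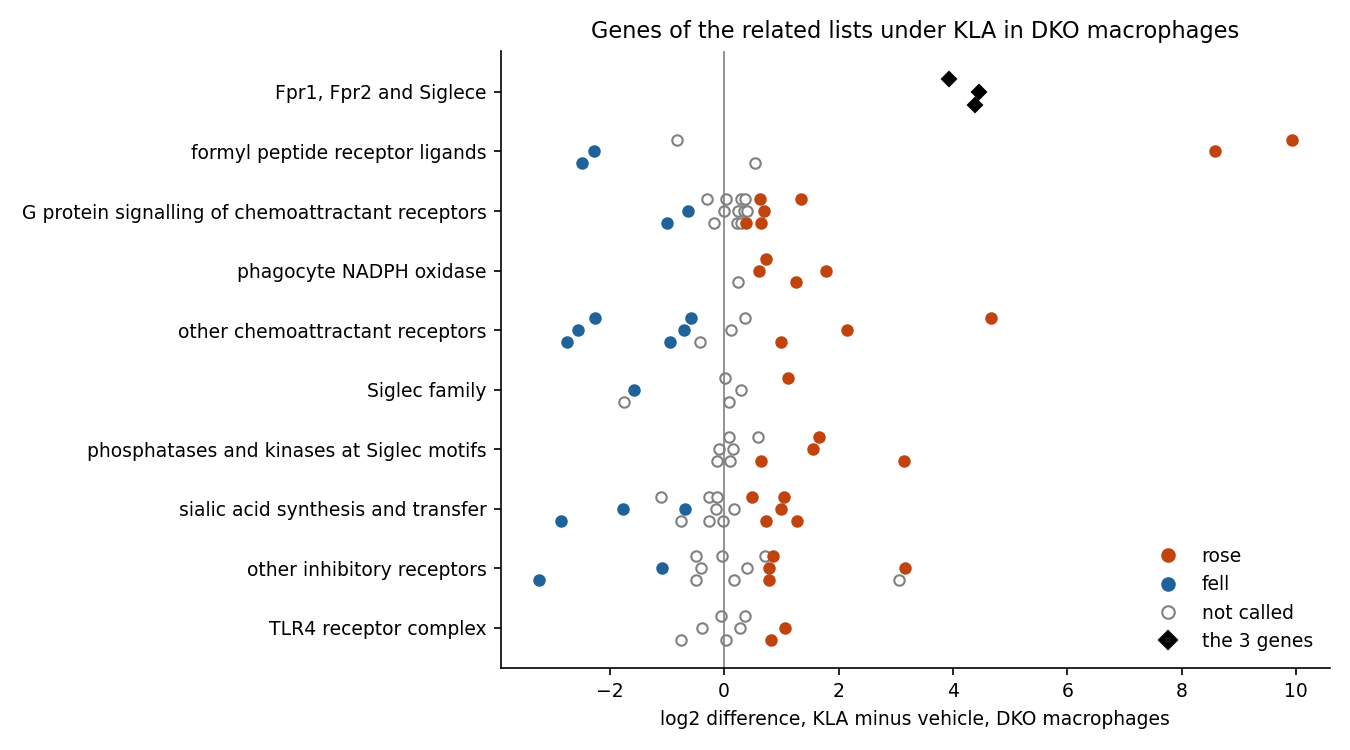
log2 difference of KLA from vehicle in DKO macrophages for each tested gene of 9 lists, filled where called and open where not, with the 3 genes as diamonds in the top row. The diamonds lie at 3.94 to 4.46, and of the list genes only Saa1, Saa3 and Gpr84 lie to their right.

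AcLDL and GW3965 called no gene of these 9 lists in DKO cells. The limma count was 0 of 94 tested genes for AcLDL and 0 of 94 for GW3965. Of all genes tested, 0.125% were called for AcLDL and 0.00621% for GW3965. A count of 0 is near those shares, and nothing is read from it. Pilra, among the 5 genes most like each of the 3 over the 24 libraries, differed by -0.88 ± 0.17 on the log2 scale under AcLDL in DKO cells and was not called, a value from libraries that took part in that likeness.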

How the data were processed

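RNA sequencing was done on 24 libraries (single-end, 50 bp reads, per the series' design text), made with a stranded total RNA kit, per the labels' protocols. The 3 deposited tables each hold 1 treatment beside vehicle. The deposited signal values are normalized counts, which the authors made by dividing gene counts by a size factor per library. kallisto, DESeq2 and build GRCm38 are named in the submitters' processing notes. The sources used here give no versions, annotation or strand setting, and kallisto's estimated counts may share reads among similar transcripts. Dividing by each library's smallest step recovered whole numbers, called reads here, for 100% of values (tolerance 0.01 read). Vehicle columns were identical in the 3 tables. The authors' deposited log2 differences in response between genotypes were printed beside those computed here. Their deposited standard errors and test statistics (unit score) and their deposited p-values were not used for any result.

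limma-trend (limma 3.58.1, R 4.3.3) was fitted to log2(normalized count + 1) over 12 libraries, with 4 group means and 1 spread. The 12 libraries of each fit included LXR-positive libraries that chose the genes, so its standard errors and p-values rest in part on them. Genes entered with at least 10 normalized counts in 3 of the 12 libraries. P-values were adjusted by Benjamini-Hochberg over all genes tested, and called means an adjusted p under 0.05. Differences on this scale understate the change of low genes. The fit was tested on simulated data. As alternatives, edgeR 4.0.16 and DESeq2 1.42.0 were run on the recovered reads, beside other pseudocounts, filters, scalings and thinning, a fit of only the 6 libraries compared, each library left out in turn, and the mouse as a block. The design text gives 6 mice and 4 treatments, and same-numbered libraries of a genotype were taken to share a mouse. Deviations of such libraries from their group's mean had a median r of 0.304 in DKO (17 of 18 pairs over 0.1) and 0.234 in LXR-positive libraries (17 of 18).

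The 3 genes, the gene lists and the tests were chosen with earlier results of these data known. Named besides the 3 genes are the 5 genes with the highest correlation to each, up to 4 called genes with the largest change in each list, the other formyl peptide receptors and Siglecs, and checks of each treatment; some genes these rules pick are not reported here. Lists are described by counts and medians, without a test of the list. Sequences come from RefSeq (GRCm38.p6), whose promoter table held all 3 genes, and GENCODE M21. Protein sequences were not used here. Analyses ran in Python 3.11.15 with pandas 2.3.3.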

Additional observations from a re-analysis of the deposited data

Results flagged for a closer look

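The GW3965 response of Siglece had opposite signs in the DKO and the LXR-positive mice. Within a mouse the ratio of GW3965 to vehicle was 1.58, 1.08 and 1.11 in the 3 DKO mice, against 0.491, 0.978 and 0.756 in the 3 LXR-positive mice. The difference in response, DKO minus LXR-positive, was 0.79 ± 0.51 SE on the log2 scale. It was not tested, since the LXR-positive vehicle libraries took part in choosing the gene, and in each genotype the GW3965 and vehicle ranges overlapped. Without 1 library the DKO response of Siglece was 0.020 to 0.69 on the log2 scale, lowest without the vehicle library of DKO mouse 2 and highest without its GW3965 library. The 3 genes were scanned under each treatment for such a split, and it was found only here. The ratios nearest 1, 0.978 and 1.08, rest on 76 and 84 reads under GW3965. Fpr1 and Fpr2 showed no such split.

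The LXR targets used to check GW3965 responded differently between the genotypes, by an interaction contrast in limma, a test not made for Siglece. The response in DKO minus that in LXR-positive cells was -2.05 ± 0.14 for Abca1 (adjusted p = 4.35e-05), -2.67 ± 0.15 for Abcg1 (adjusted p = 1.17e-05) and -5.59 ± 0.34 for Scd2 (adjusted p = 1.24e-05).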

How the results depend on the processing

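The KLA rise and the KLA against AcLDL difference of the 3 genes in DKO cells kept their direction and their call under each of the 16 alternatives run, with log2 values of 3.79 to 4.66 for KLA against vehicle. With the mouse as a replicate block the adjusted p of the KLA rise was 8.26e-06 (Fpr1), 1.47e-05 (Fpr2) and 3.04e-06 (Siglece). The block changed no call of the 3 genes, and the AcLDL differences in DKO cells did not pass with it (adjusted p = 0.0688 for Fpr1, 0.139 for Fpr2 and 0.0931 for Siglece, all by limma). DESeq2 called AcLDL in DKO cells for Fpr1 (-1.68) and Siglece (-1.50), and the cause was not tested. Leaving out single libraries gave GW3965 differences in DKO cells of -0.41 to 0.056 for Fpr1 and -0.45 to 0.19 for Fpr2 and 0.020 to 0.69 for Siglece. They gave DKO against LXR-positive differences under GW3965 of -1.105 to -0.47 for Fpr1, -0.76 to -0.11 for Fpr2 and -0.39 to 0.22 for Siglece. No paired analysis was possible for DKO against LXR-positive cells because the mice differ between genotypes.

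Counts of called genes moved more than those of the 3 genes. For AcLDL in DKO cells the count was 20, against 78 by DESeq2 and 38 with the block. For GW3965 in DKO cells it was 1, with 0 to 24 over the alternatives, and for DKO against LXR-positive under GW3965 1553, with 458 to 2114. For AcLDL in LXR-positive cells, an alternative set added after the data were seen, it was 36, with 10 to 277. Depth limits the AcLDL groups most, at 9 to 68 reads per gene and library.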
